A study of Mus musculus with 4 samples.

Results

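The matrix metalloproteinases (MMPs), the ADAMTS and ADAMTS-like proteins, and the tissue inhibitors of metalloproteinases (TIMPs) form a set of genes for cutting the extracellular matrix and for restraining that cutting. Members were taken by gene symbol alone: symbols that begin with Mmp and a digit, with Adamts, or with Timp and a digit. The rule found 37 genes of the 25265 in the deposited table, namely 11 MMP, 17 ADAMTS, 5 ADAMTS-like and 4 TIMP genes. The data are RNA-seq of whole testis from C57BL/6 mice at postnatal day 56, in 2 control libraries and 2 whose genotype label is Ythdf2-vKO (below, vKO). The series title describes a germ cell-specific mutation of Ythdf2, whose product binds mRNA carrying N6-methyladenosine (m6A) and promotes its decay. The promoter that drives the deletion and the deleted segment are not given in the sources used here, nor is the genotype of the control animals beyond the word control, nor whether each library came from its own animal. P-values therefore measure the spread between libraries, which may be technical. YTHDF2 has been proposed to act on MMP mRNAs in spermatogonia, and the comparison asks how this gene family differs in adult testis with the genotype label.

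MMPs are zinc-dependent proteases that are made as inactive precursors and cleave collagens, laminins and many other matrix and surface proteins. ADAMTS enzymes are secreted relatives that trim proteoglycans and process procollagens, and ADAMTS-like proteins keep the accessory domains but lack the protease domain. TIMPs bind the active site of these enzymes and block it. In the testis, Sertoli, peritubular and interstitial cells make much of this machinery, and proteolysis accompanies the passage of germ cells through the blood-testis barrier and the release of sperm.

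Total counts ran from 24862518 to 29561182 per library. The targeted gene did not check the labels: Ythdf2 was at 51.0 and 53.5 CPM (counts relative to library size, scaled by TMM) in the controls against 66.3 and 67.0 CPM in vKO (log2 fold change 0.35, SE 0.13, edgeR adjusted p 0.238). Directions below are therefore those of the libraries labelled vKO against those labelled control. Markers of the testis were present in every library, with a summed level of 8 elongating spermatid genes between 8520 and 11044 CPM. In bulk tissue, fewer cells of a type and less RNA per cell cannot be told apart.

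The promoters of 3 TIMP genes are printed because Timp1 and Timp2 had the smallest p-values of the family while Timp3 was lower in mean. Each runs 300 bases, from 250 before to 50 after the gene start in RefSeq, on the gene's own strand, and comes from RefSeq on GRCm38.p6. The windows are chrX:20869916-20870215 (plus strand) for Timp1, chr11:118355362-118355661 (minus strand) for Timp2 and chr10:86300162-86300461 (plus strand) for Timp3. Capitals mark matches to GGGCGG (the GC box) or AGGAAG (an Ets motif) on either strand.
Timp1: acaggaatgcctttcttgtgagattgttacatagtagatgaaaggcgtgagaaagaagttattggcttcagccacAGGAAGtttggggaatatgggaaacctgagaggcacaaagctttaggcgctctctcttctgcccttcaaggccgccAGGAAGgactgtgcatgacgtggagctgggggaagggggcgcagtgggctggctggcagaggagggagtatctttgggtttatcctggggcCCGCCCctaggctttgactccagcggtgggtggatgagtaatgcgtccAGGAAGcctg
Timp2: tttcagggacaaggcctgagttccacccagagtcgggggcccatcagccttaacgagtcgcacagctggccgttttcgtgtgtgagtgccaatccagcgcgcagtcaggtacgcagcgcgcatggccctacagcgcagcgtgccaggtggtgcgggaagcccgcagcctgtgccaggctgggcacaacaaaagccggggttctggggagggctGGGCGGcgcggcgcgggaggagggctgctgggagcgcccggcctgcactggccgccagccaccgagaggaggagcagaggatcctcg
Timp3: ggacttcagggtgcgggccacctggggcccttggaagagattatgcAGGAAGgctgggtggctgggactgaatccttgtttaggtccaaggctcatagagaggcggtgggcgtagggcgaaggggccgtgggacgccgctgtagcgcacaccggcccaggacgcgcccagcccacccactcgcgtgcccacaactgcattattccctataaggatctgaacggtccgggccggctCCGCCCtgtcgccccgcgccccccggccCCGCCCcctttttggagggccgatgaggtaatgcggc

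The Timp1 window held 3 AGGAAG matches, Timp3 held 1 and Timp2 held 0. A GGGCGG match was found in all 3 windows. TGANTCA (AP-1) and TATAAA (the TATA box), searched on both strands like the other motifs, none of which contains another, had no match in these 3 windows. Timp2 and Timp3 were rich in CpG, with 25 and 24 CpG dinucleotides and 68.7% and 67% G or C, while Timp1 had 8 CpG and 55%. The Timp4 window is not printed, though Timp4 was also slightly lower in mean (2.08 CPM in control, 2.01 in vKO). It held 0 GGGCGG and 1 AGGAAG matches, with 2 CpG and 53.3% G or C. RefSeq promoters matched 23 of the 37 members, with 24 windows. Of these windows, 20 (83.3%) held GGGCGG, 6 (25%) AGGAAG, 2 (8.33%) TATAAA and 0 TGANTCA. Among all 32851 promoter windows of that length the shares were 35.7%, 35.4%, 13.6% and 7.81%. A match is a description of the letters and not a site.

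Of the 37 members, 36 had enough counts to be tested, and Adamts12 (at 0.257 and 0.667 CPM in the controls against 0.299 and 0.334 CPM in vKO) did not. Differential expression was tested by the quasi-likelihood method of edgeR, adjusted by Benjamini-Hochberg over all 21132 genes that passed the count filter. None of the 36 members passed an adjusted p of 0.05 in either direction, where 0.279% of all genes tested were called higher and 0.114% lower in vKO. At an unadjusted p under 0.05, 6 members (16.7%) were higher and 2 (5.56%) lower, against 7.65% and 6.47% of all genes tested. The 6 were Timp1, Timp2, Mmp14, Mmp19, Adamts1 and Adamtsl5, and the 2 were Adamts9 and Adamts19. The groups did not overlap, with vKO higher, for 12 members (33.3%, against 22.7% of all genes) and, with vKO lower, for 5 members (13.9%, against 22.6%). The fitted log2 fold change was positive for 23 of the 36, with a median of 0.20 beside 0.00265 over all genes. By family the medians were 0.36 for MMPs, 0.19 for ADAMTS, 0.39 for ADAMTS-like and 0.26 for TIMPs, and the ADAMTS median was -0.05 without control replicate 1 and -0.26 without vKO replicate 1. With at least 10 counts in every library the medians were 0.14 for MMPs, 0.03 for ADAMTS and -0.0437 for TIMPs.

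**Figure D1:**
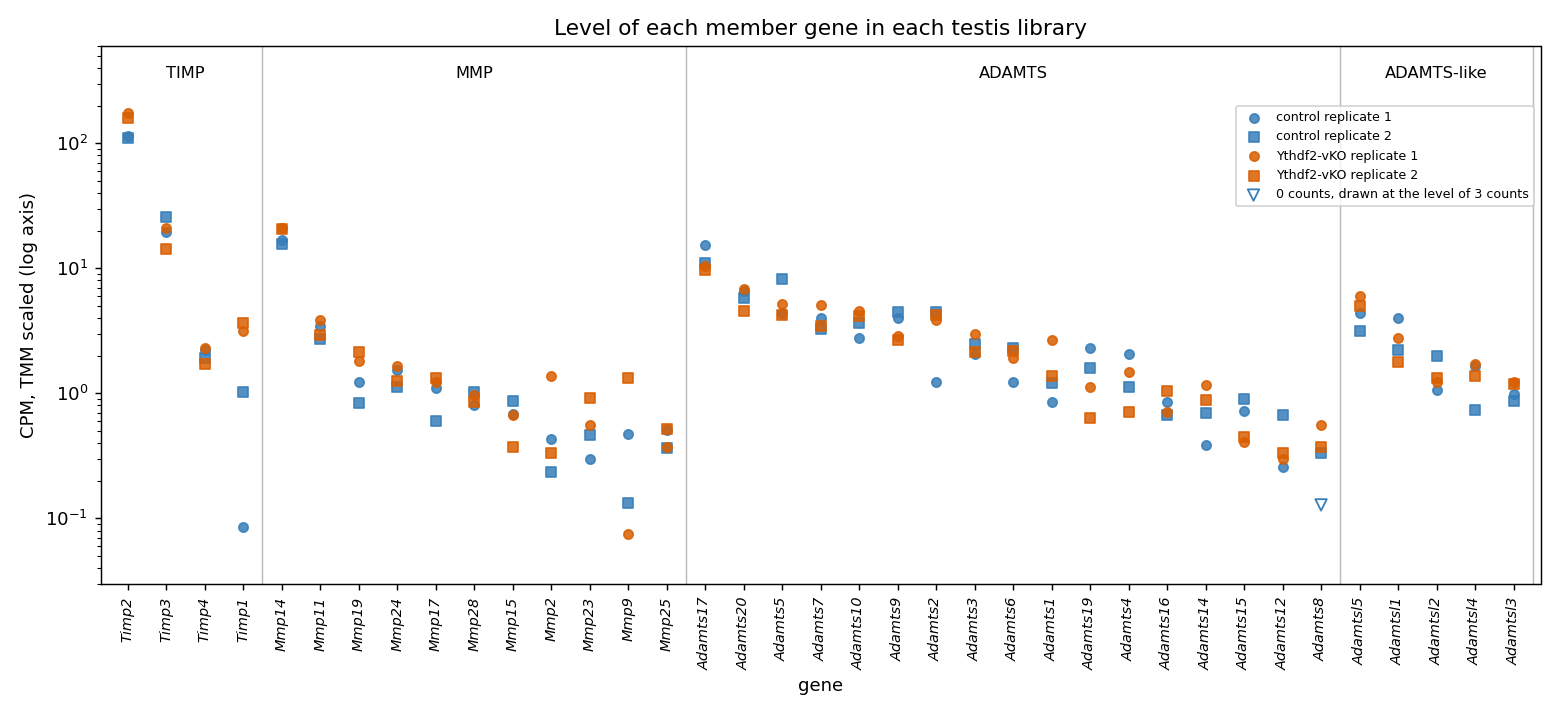
Level of each of the 37 genes (TMM-scaled CPM, log axis) in each library, with blue for control, orange for vKO, circles for replicate 1 and squares for replicate 2. Timp2 lies above 100 CPM in all 4 libraries, and 10 of the 36 tested genes have a mean under 1 CPM.

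Levels of different genes were compared per kilobase of the longest annotated transcript. Timp2 was the most abundant member at 37.8 CPM per kb averaged over the 4 libraries, followed by Mmp14 (5.70), Timp3 (4.28), Timp1 (2.24) and Adamts17 (1.81). The other 32 members lay between 0.0454 (Adamts12) and 1.41 (Mmp11) CPM per kb. Timp2 alone gave 56.9% and 54.9% of the summed per-kilobase level of all members in the controls, and 60.7% and 61.4% in vKO. All 4 TIMPs together gave 65.4% and 67.7% in control and 71.6% and 72.0% in vKO. This is a share of mRNA and not of protein or activity. The summed MMP level was 8.58 and 7.59 CPM per kb in control and 10.6 and 10.4 in vKO. Much of this sum was Mmp14, at 5.70 CPM per kb over the 4 libraries, and 6 of the 11 MMPs had a mean under 1 CPM. The summed ADAMTS level overlapped between groups (8.01 and 8.33 against 8.79 and 7.12).

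The inhibitors held the smallest p-values of the family. Timp2 (ENSMUSG00000017466, GRCm38 chromosome 11, 118301069 to 118355740, minus strand) encodes a secreted inhibitor that also helps to activate the MMP2 precursor on the cell surface. It had 2694 and 3328 counts in the controls against 4673 and 4322 in vKO, or 115 and 111 CPM against 175 and 160 CPM. Both vKO libraries lay above both controls, and the gap between the groups was far wider than that within either. The mean went from 113 ± 3.0 to 167 ± 10.2 CPM (SD, n = 2 each), a 1.48-fold difference. On the log2 scale this was 0.57 (SE 0.12), and the edgeR adjusted p of 0.0692 did not pass the threshold. Without vKO replicate 1 it was 0.50 (adjusted p 0.60). At an adjusted p under 0.1, Timp2 was the 1 member called, where 1.03% of all genes were. The authors' deposited table gave Timp2 a log2 fold change of 0.56 (SE 0.14) with an adjusted p of 0.0110. In the authors' deposited table, Timp2 was the 1 member of the 17 with an adjusted p that was under 0.05, against 1.32% of the 16448 genes that had one. A gene in the same orientation, Cep295nl, lies inside Timp2 and shares 0 exonic bases with it. Cep295nl had 684 and 599 CPM in the controls against 592 and 593 CPM in vKO, so it was not higher with Timp2.

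Timp1 (ENSMUSG00000001131, chromosome X, 20870166 to 20874735, plus strand), an inhibitor induced in many tissues by cytokines and growth factors, had the widest fold difference. Its counts were 2 and 31 in control and 84 and 99 in vKO, or 0.0856 and 1.03 CPM against 3.14 and 3.67 CPM. The vKO libraries were alike, both were above both controls, and the controls were far apart. The mean went from 0.56 ± 0.67 to 3.40 ± 0.38 CPM (SD, n = 2 each). On the log2 scale the difference was 2.51 (SE 0.64), and the edgeR adjusted p of 0.149 did not pass. Without control replicate 1 the log2 fold change was 1.71 (adjusted p 0.00268), and without control replicate 2 the control rests on 2 counts and no fold is given. Timp1 lies within Syn1, a synapsin gene on the opposite strand, and their exons share 0 bases. Syn1 had 1 and 1 counts in the controls against 11 and 16 in vKO (adjusted p 0.127).

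The other inhibitors were not higher in vKO. Timp3 (chromosome 10, 86300372 to 86349506, plus strand), which is held in the matrix and also blocks ADAMTS4, ADAMTS5 and ADAM17, had 19.6 and 25.9 CPM in the controls against 21.0 and 14.3 CPM in vKO. Its groups overlapped (log2 fold change -0.36, SE 0.20, adjusted p 0.46). Single libraries moved the value of Timp3: it was -0.56 without control replicate 1 (adjusted p 0.0299, called lower), -0.14 without control replicate 2, -0.66 without vKO replicate 1 and -0.11 without vKO replicate 2. Timp4 (chromosome 6, 115241892 to 115252205, minus strand) had 2.22 and 1.93 CPM in the controls against 2.32 and 1.71 CPM in vKO, also overlapping (log2 fold change -0.05, SE 0.33, adjusted p 0.971). The log2 fold change of Timp4 was positive (0.02) with scaling by library totals alone. Like Timp1, both lie opposite a synapsin gene, Timp3 within Syn3 with 1733 shared exonic bases and Timp4 within Syn2 with 90. The use of strand in counting is not given in the sources used here, so reads of such pairs may not be told apart. Syn3 had 18 to 34 counts a library and Syn2 291 to 397.

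**Figure D2:**
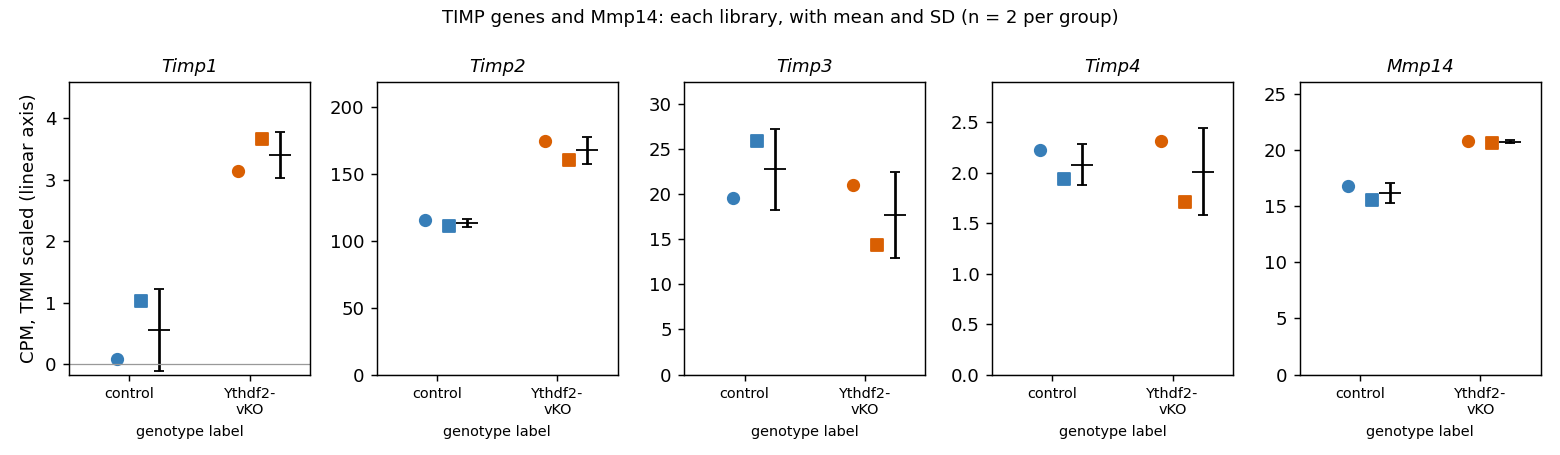
CPM of the 4 TIMP genes and Mmp14 (linear axes), 1 point per library (circle, replicate 1; square, replicate 2) with the mean and SD of each group of 2. Timp1, Timp2 and Mmp14 separate the groups, while Timp3 and Timp4 overlap.

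Among membrane-type MMPs, which are anchored at the cell surface, Mmp14 was the most abundant. Mmp14 (ENSMUSG00000000957, chromosome 14, 54431612 to 54445364, plus strand) cleaves fibrillar collagen and, with TIMP2 as adaptor, activates MMP2. It had 16.8 and 15.6 CPM in the controls against 20.8 and 20.6 CPM in vKO, so that the groups did not overlap. The mean went from 16.2 ± 0.87 to 20.7 ± 0.14 CPM (SD, n = 2 each), which is 0.36 on the log2 scale (SE 0.15, edgeR adjusted p 0.31). Mmp17 had 1.11 and 0.60 CPM in the controls against 1.23 and 1.33 CPM in vKO (log2 fold change 0.60, SE 0.45, adjusted p 0.608). Mmp17 was at 1.08 without control replicate 1 and at 0.21 without control replicate 2. The other 3 membrane-type genes tested, Mmp15, Mmp24 and Mmp25, had log2 fold changes between -0.58 and 0.13.

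The gelatinases, which cut denatured collagen and basement membrane collagen, were near the limit of detection. Mmp2 had 10 and 7 counts in the controls against 37 and 9 in vKO, so that 1 vKO library carried the difference. The fitted difference of Mmp2 was 1.39 on the log2 scale (SE 0.72, adjusted p 0.416), and 0.04 without vKO replicate 1. Mmp9 had 11 and 4 counts in the controls against 2 and 36 in vKO, with the vKO libraries on both sides of the controls. Neither gelatinase passed the test (Mmp9 adjusted p 0.663).

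Mmp19, a secreted MMP that cleaves basement membrane proteins, had 1.24 and 0.834 CPM in the controls against 1.83 and 2.15 CPM in vKO. The groups did not overlap, and the log2 fold change was 0.95 (SE 0.38, adjusted p 0.289). Tmem198b lies on the opposite strand and shares 789 exonic bases with Mmp19. It had 4.92 and 5.67 CPM in the controls against 7.43 and 7.45 CPM in vKO, also without overlap, and its part in the Mmp19 counts was not tested. Mmp11 (stromelysin-3), which is activated inside the cell by furin, had 3.47 and 2.70 CPM in the controls against 3.85 and 2.93 CPM in vKO, overlapping (log2 fold change 0.14, SE 0.28). Its direction turned without control replicate 2 (-0.03), without vKO replicate 1 (-0.07) and in the model of GC offset and replicate block (-0.00629). Chchd10 lies on the opposite strand and shares 155 exonic bases with Mmp11. It was at 20.6 and 21.2 CPM in the controls against 36.4 and 32.9 CPM in vKO and was called higher (log2 fold change 0.73, SE 0.14, adjusted p 0.0496). Mmp23 and Mmp28, the remaining secreted or released members, had log2 fold changes of 0.93 and -0.03 with adjusted p of 0.521 and 0.989.

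The GENCODE M21 annotation holds 14 further genes whose symbols match the rule, 12 of them MMPs. The deposited table does not list these genes, so they could not be analysed here. They include the collagenases Mmp8 and Mmp13, the stromelysins Mmp3 and Mmp10, matrilysin Mmp7 and the macrophage elastase Mmp12.

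ADAMTS proteoglycanases, which cleave versican, aggrecan and related proteoglycans, pointed both ways, with 2 of 7 positive and 5 negative. Adamts1 had 0.856 and 1.20 CPM in the controls against 2.69 and 1.37 CPM in vKO. The groups did not overlap, but vKO replicate 2 lay close to control replicate 2 (log2 fold change 0.97, SE 0.42, adjusted p 0.325). Without vKO replicate 1 its log2 fold change was 0.40. Adamts9, a widely conserved versican-cleaving enzyme, had 3.98 and 4.47 CPM in the controls against 2.88 and 2.67 CPM in vKO. The libraries of each group were close together, and the log2 fold change was -0.61 (SE 0.26, adjusted p 0.308), between -0.70 and -0.52 over 14 alternatives. Its annotated exons share 1381 bases with A730049H05Rik on the opposite strand, a gene that the deposited table does not list.

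Adamts20, the closest relative of Adamts9, had 6.59 and 5.77 CPM in the controls against 6.80 and 4.56 CPM in vKO, overlapping (log2 fold change -0.12, SE 0.24). Adamts4, an aggrecanase, had 2.05 and 1.13 CPM in the controls against 1.49 and 0.704 CPM in vKO (log2 fold change -0.52, SE 0.46, adjusted p 0.679). For Adamts4 the value was -0.05 without control replicate 1, -0.90 without control replicate 2, -1.16 without vKO replicate 1 and -0.08 without vKO replicate 2. Adamts5, the other main aggrecanase, had 4.36 and 8.24 CPM in control against 5.19 and 4.23 CPM in vKO, so the control libraries differed more than the groups did. Adamts8 was at 0 counts in control replicate 1, which allows up to 0.128 CPM, and had 10 to 15 counts in the other libraries. Adamts15 was at 17 and 27 counts in the controls against 11 and 12 in vKO, which did not overlap (log2 fold change -0.93, SE 0.54, adjusted p 0.479).

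The procollagen N-propeptidases, which trim fibrillar procollagens before they assemble, were positive in 3 of 3 genes. Adamts2, the most counted of them, had 29 and 135 counts in the controls against 103 and 115 in vKO. Control replicate 1 stood alone, and the other 3 libraries lay between 3.85 and 4.50 CPM. Without control replicate 1 the log2 fold change of Adamts2 was -0.16, and without control replicate 2 it was 1.71 (adjusted p 0.0020), against 0.47 (SE 0.48, adjusted p 0.729) with all 4. Adamts3 and Adamts14 had log2 fold changes of 0.18 and 0.89.

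Of the remaining ADAMTS genes, Adamts17 was the most abundant. It had 15.4 and 11 CPM in the controls against 10.5 and 9.64 CPM in vKO, which did not overlap by a narrow margin (log2 fold change -0.39, SE 0.20, adjusted p 0.403). Without control replicate 1 Adamts17 was at -0.14, and without control replicate 2 at -0.61. Adamts19 had 54 and 48 counts in the controls against 30 and 17 in vKO, or 2.31 and 1.60 CPM against 1.12 and 0.63 CPM. Both vKO libraries were below both controls, with a mean of 1.96 ± 0.50 against 0.875 ± 0.35 CPM (SD, n = 2 each). At -1.15 (SE 0.42, edgeR adjusted p 0.245), its log2 fold change was the most negative of the family. Adamts7, which degrades cartilage oligomeric matrix protein, had 3.98 and 3.27 CPM in the controls against 5.12 and 3.48 CPM in vKO (log2 fold change 0.25, SE 0.27, and -0.05 without vKO replicate 1). It shares 122 exonic bases with the opposite-strand gene Tbc1d2b, at 49 and 74 counts in the controls against 140 and 99 in vKO. Adamts6, Adamts10 and Adamts16 lay between 0.19 and 0.43 on the log2 scale.

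Adamtsl5, an ADAMTS-like protein that binds fibrillin microfibrils, had 4.41 and 3.17 CPM in the controls against 6.05 and 4.97 CPM in vKO. The groups did not overlap, and the log2 fold change was 0.55 (SE 0.25, adjusted p 0.353), or 0.32 without control replicate 2. The other 4 ADAMTS-like genes ranged from -0.44 (Adamtsl1) to 0.39 (Adamtsl3), and of these only Adamtsl3 separated the groups.

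**Figure D3:**
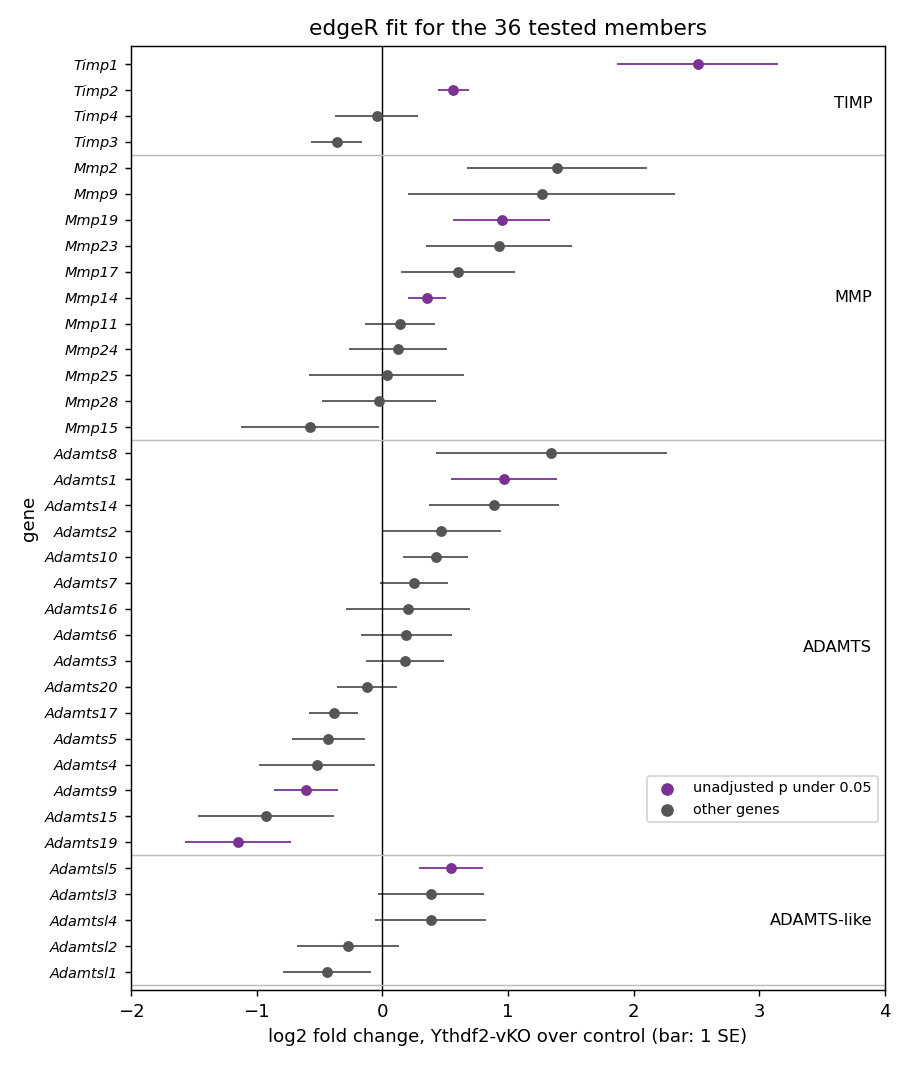
Log2 fold change (vKO over control) with 1 SE for the 36 tested genes, grouped by family, with unadjusted p under 0.05 in purple. Timp2 has the shortest bar of the 8 purple genes, and Timp1 the highest value, 2.51.

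The control libraries differed from each other for many members. On log2(CPM + 0.1), the difference between the controls was larger than that between the group means for 21 of 36 members (58.3%), beside 54.5% of all genes tested. Control replicate 1 was lower by 2.61 for Timp1, 2.12 for Adamts8, 1.78 for Adamts2 and 0.90 for Adamts5. Other members went the opposite way, with control replicate 2 minus control replicate 1 at -1.29 for Mmp9, -1.08 for Adamtsl4 and about -0.80 for Adamtsl1, Adamts4 and Mmp17. A list of 8 interstitial fibroblast genes summed to 35.0 CPM in control replicate 1 and to 74.0 CPM in control replicate 2. In vKO the sums were 74.5 and 61.3 CPM, and 1 of the 8 genes was at 0 in a library. Of the 7 tested, 5 were positive and 2 negative (median 0.11). At an unadjusted p under 0.05 by edgeR, 1 was higher and 0 lower, against 7.65% and 6.47% of all genes. That gene, Pdgfra, had 5.22 and 8.74 CPM in the controls against 14.9 and 14.3 CPM in vKO (log2 fold change 1.05, SE 0.23, adjusted p 0.0725). The part of this list in these members was not tested. For Timp2 and Mmp14 the controls differed by only 0.05 and 0.11.

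**Figure D4:**
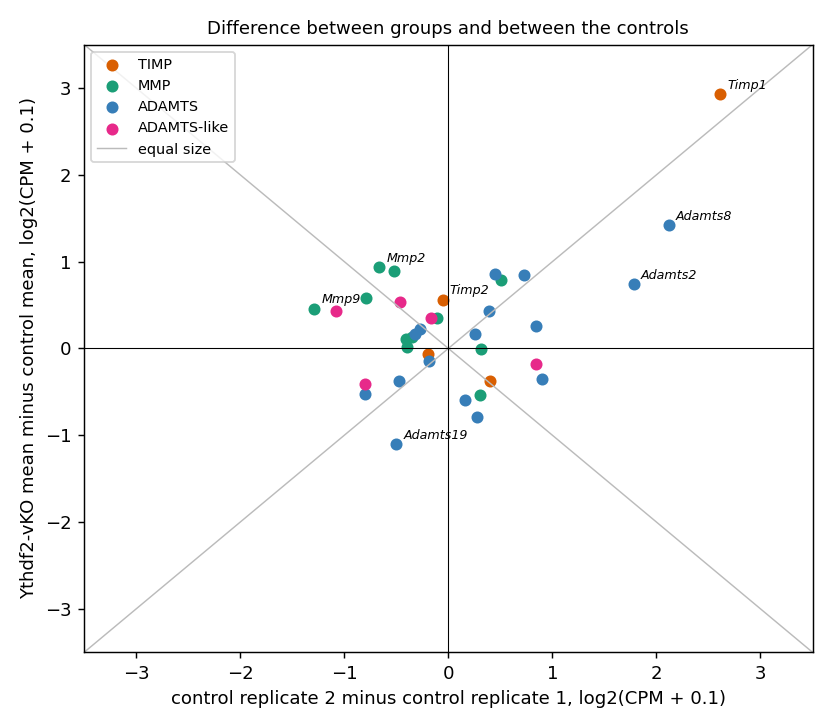
Difference between the 2 control libraries (x) against that between group means (y), both as log2(CPM + 0.1), for the 36 tested genes. Grey diagonals mark equal size: Timp2 lies well above them near x = 0, while Adamts2 and Adamts8 lie below the diagonal, the controls being farther apart than the groups.

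Lists of cell type markers were read beside the members, and over all genes tested 7.65% were higher and 6.47% lower at an unadjusted p under 0.05, with 0.279% called higher. All 11 Sertoli genes tested had positive log2 fold changes (median 0.44), of which 6 had an unadjusted p under 0.05 and 1, Wt1, was called (log2 fold change 0.71, SE 0.13, adjusted p 0.0418), and their summed level was 884 and 951 CPM in the controls against 1249 and 1092 CPM in vKO, with 0 of the 11 at 0 in any library. For 8 Leydig genes, 7 were positive (median 0.38), with sums of 301 and 365 CPM in control that overlapped the 478 and 357 CPM in vKO. All 9 spermatogonia genes tested were positive (median 0.41), 3 of them at an unadjusted p under 0.05, with sums of 96.8 and 94.0 CPM in the controls against 118 and 100.7 CPM in vKO. Of 7 endothelial genes tested, 5 were positive (median 0.37). Their list summed to 37.3 and 26.3 CPM in the controls against 45.0 and 38.8 CPM in vKO. Vwf alone was at 26.1 and 14.2 CPM in the controls against 30.8 and 23.5 CPM in vKO, overlapping. In the Sertoli sum, Clu alone was at 658 and 715 CPM in the controls against 934 and 801 CPM in vKO. The 3 erythrocyte genes tested were positive (median 0.80), each at an unadjusted p under 0.05, with sums of 9.41 and 9.61 CPM in the controls against 19.9 and 12.8 CPM in vKO. The sums of the Sertoli, spermatogonia, endothelial, erythrocyte, round spermatid and epididymis lists did not overlap between groups, with vKO higher. Of the 5 epididymis genes, 2 were in the deposited table and 1, Cst12, was tested. Cst12 alone was at 37.6 and 45.0 CPM in the controls against 47.4 and 46.1 CPM in vKO (log2 fold change 0.18, SE 0.14, edgeR adjusted p 0.626). The sums of the elongating spermatid, macrophage, and rete testis and efferent duct lists did not overlap either, with vKO lower. Among single genes tested, 22.7% did not overlap with vKO higher and 22.6% with vKO lower. The 8 elongating spermatid genes were mostly negative (1 of 8 positive, median -0.27), and 4 were lower at an unadjusted p under 0.05. Their sums were 11044 and 9091 CPM in the controls against 8520 and 8736 CPM in vKO. Of 8 spermatocyte genes, 1 was positive (median -0.14) and 2 were lower at an unadjusted p under 0.05. The spermatocyte sums overlapped between groups. The part of these lists in the Timp2 and Mmp14 values was not tested. Peritubular myoid genes (3 of 7 positive, median -0.05) had sums that overlapped between groups. For macrophage genes (7 of 10 positive, median 0.04), sums were 403 and 438 CPM in the controls against 368 and 397 CPM in vKO. These did not overlap, with vKO lower. Aif1 alone was at 344 and 340 CPM in the controls against 278 and 322 CPM in vKO.

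Activators, other inhibitors and partners of these proteases were read from a list of 26 genes, of which 22 were tested. None passed an adjusted p of 0.05 by edgeR and 0 by the DESeq2 Wald test, and 3 were higher and 1 lower at an unadjusted p under 0.05, against 7.65% and 6.47% of all genes tested (13 of 22 positive, median 0.12). A2m, a plasma-type inhibitor that traps proteases of all classes, had 6.80 and 5.80 CPM in the controls against 3.03 and 3.60 CPM in vKO (log2 fold change -0.93, SE 0.24, adjusted p 0.121). Furin, which activates the membrane-type MMPs, MMP11 and many ADAMTS precursors, had 11.5 and 9.74 CPM in the controls against 17.3 and 14.2 CPM in vKO (0.57, SE 0.18, adjusted p 0.191). Serpina5, a serine protease inhibitor of the male tract, had 52.1 and 72.2 CPM in the controls against 95.3 and 79.0 CPM in vKO (0.49, SE 0.16, adjusted p 0.221). These 3 genes were chosen for the smallest p, and their groups did not overlap, which held for 22.7% (higher) and 22.6% (lower) of all genes.

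Substrates were read from a list of 25 matrix and junction genes, of which 24 were tested. None was called by edgeR and 1 (Cldn11) by the DESeq2 Wald test, which called 137 genes higher and 80 lower in all. At an unadjusted p under 0.05, 6 were higher and 0 lower, against 7.65% and 6.47% of all genes tested (16 of 24 positive, median 0.14). The smallest p belonged to Cldn11, the tight junction protein of the blood-testis barrier and also a gene of the Sertoli list, at 65.2 and 68.1 CPM in the controls against 96.6 and 93.4 CPM in vKO (log2 fold change 0.51, SE 0.12, adjusted p 0.105). Col4a2 and Col4a1, which encode the chains of basement membrane collagen, had log2 fold changes of 0.64 (SE 0.18, adjusted p 0.145) and 0.84 (SE 0.24, adjusted p 0.159). Col4a1 stood at 6.85 and 11.8 CPM in the controls against 18.4 and 15.2 CPM in vKO.

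Members had GC-rich, long transcripts, with a median GC content of 54.1% and a median length of 4803 bases, against 48.9% and 2652 for all genes tested. Across the 36 members the Spearman correlation of the log2 fold change with GC content was 0.268, beside 0.255 across all genes, as a description over genes that share the same 4 libraries. With an offset for GC content the log2 fold change of Timp2 was 0.48 (adjusted p 0.0735). Under that offset Mmp14 was at 0.27 (unadjusted p 0.0886, adjusted p 0.457 by edgeR) and Adamtsl5 at 0.38 (unadjusted p 0.131, adjusted p 0.526), so that 4 and not 6 members were higher at an unadjusted p under 0.05. GGACT, a common form of the m6A consensus, occurred on the sense strand of the longest transcript of 35 of 36 members (97.2%, beside 85.9% of all genes, whose transcripts are shorter), at a median of 1.06 per kb beside 1.02 per kb over all genes. Timp2 held 3 such matches in 3709 bases, Timp1 held 1 in 883 and Adamts9 held 13 in 8016. No methylation was measured here.

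Some other fits called members. Timp2 passed with library totals alone (adjusted p 0.0169), where 1.03% of all genes were called. Timp1 and Timp2 passed with the replicate block (adjusted p 0.0181 and 0.00145, with 4.81% of all genes called). Both also passed with the GC offset and replicate block (0.0438 and 0.00956, with 3.12%). That last fit was the 1 of 14 alternatives that called Ythdf2, the targeted gene, and it did so as higher in vKO (log2 fold change 0.40, SE 0.10, edgeR adjusted p 0.0346). Without control replicate 1, the 4 members Timp1, Timp2, Timp3 and Adamts5 passed, where 6.82% of all genes did. Without control replicate 2, the 3 members Timp1, Timp2 and Adamts2 passed, where 4.93% did. No member passed without vKO replicate 1, or without vKO replicate 2.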

How the data were processed

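Libraries of testis RNA were compared, 2 labelled control and 2 labelled Ythdf2-vKO. The authors deposited 1 table that gives unnormalized read counts in each library for every gene it lists, per the file headers. The same deposited table holds the mean normalized count (a signal), a log2 fold change with its SE, a test score (the statistic), and raw and adjusted p-values, under DESeq2's column names. HISAT2 2.1.0 and HTSeq 0.6.1p1 are named in the submitters' processing notes, and the strand setting, genome build and handling of multiply matching reads are not given in the sources used here. Libraries were directional and depleted of ribosomal RNA, per the labels' protocols.

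Counts were tested with edgeR 4.0.16 (limma 3.58.1, R 4.3.3): TMM, filterByExpr, robust quasi-likelihood fit of genotype, prior count 0.125, two-sided, Benjamini-Hochberg over 21132 genes, call at adjusted p under 0.05. The SE is the absolute log2 fold change divided by the square root of F. Every gene of the table had at least 10 counts over the libraries. Annotation is GENCODE M21 (GRCm38), joined by identifier. The fit was tested on simulated data. The libraries of each group differed by more than counting noise (chi-square per degree of freedom 19.4 in control and 7.84 in vKO), so each was kept as a library of its own; their animals of origin are not given. Reads carry no molecular identifiers, so count floors (3 counts) cover counting error only.

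Values per library are given for Ythdf2, members at an unadjusted p under 0.05, the highest member of each role group, members of at least 1 CPM that differ by at least 0.5 on the log2 scale, and all TIMPs. From the other lists, the 3 genes with the smallest p are named. Members and lists were chosen with earlier results of these data known. Further members were named after their values were seen. Alternatives were DESeq2 1.42.0 (size factors or Wald test), library totals, 2 filters, no robust estimation, a prior count of 2, a GC offset, the replicate block and leaving out each library.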

Additional observations from a re-analysis of the deposited data

How the results depend on the processing

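Of the 36 members tested, 10 had a mean under 1 CPM. The number of members called higher was 0 in the reported fit. It was 1 with library totals alone, with the DESeq2 Wald test and at an adjusted p under 0.1. It was 2 with the replicate block and with the GC offset and replicate block. The DESeq2 Wald test gave Timp2 the same values as the authors' deposited table (log2 fold change 0.56, SE 0.14, adjusted p 0.0110). These are therefore not separate results. Leaving out 1 library gave 0 to 3 members called higher and 0 to 2 called lower; a lone library is then assumed to vary like the other group. At an unadjusted p under 0.05, the 2 lower members became 1 with library totals alone and 1 with the Wald test, and 0 to 3 when a library was left out. The 6 higher members became 1 with the Wald test, 4 with the GC offset and 4 to 7 when a library was left out. The TIMP median was -0.0437 with at least 10 counts in every library, which removes Timp1, where the MMP and ADAMTS medians were 0.14 and 0.03, and the ADAMTS-like median 0.20 with the GC offset. Over the fits without 1 library the medians ran from -0.26 to 0.11 (ADAMTS), 0.21 to 0.47 (ADAMTS-like), 0.21 to 0.41 (MMP) and 0.11 to 0.39 (TIMP). The log2 fold change of Timp4 turned positive with library totals alone (0.0207), and ran from -0.283 to 0.157 without 1 library; it was 0.05 without control replicate 1. Mmp11 turned to -0.00629 with the GC offset and replicate block, and ran from -0.0696 to 0.322 without 1 library (-0.03 without control replicate 2). Without 1 library, Adamts2 ran from -0.16 to 1.71, Adamts7 from -0.0528 to 0.50 and Adamts20 from -0.436 to 0.14. Apart from the filter that removes Timp1, the cause was not tested. Timp2 ran from 0.48 to 0.63 over 14 alternatives. Same-numbered libraries deviated together at a correlation of 0.0941 over 2 pairs, and the labels do not say what the numbers mark, so they were not taken as pairs; over all genes the replicate block gave 627 higher and 390 lower calls against 59 and 24. All genes called numbered 181 higher and 37 lower with library totals alone, 137 and 80 with the Wald test, 50 and 15 without robust estimation, 89 and 67 with the GC offset, and 320 and 339 with the GC offset and replicate block. Without control replicate 1 they were 1048 and 464, without control replicate 2 554 and 523, and without vKO replicate 1 30 and 5.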
